A study of Mus musculus with 2 samples.

Results

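The natriuretic peptide system of the mouse heart was described through 8 genes, taken by name from the 55536 genes of the deposited tables. They are the 3 peptide genes Nppa, Nppb and Nppc, the 2 processing proteases Corin and Furin, and the 3 receptors Npr1, Npr2 and Npr3. Total RNA of the heart was sequenced in 2 libraries, replicate 1 and replicate 2, each made from 300 ng of RNA with ribosomal RNA reduced and ERCC spike-in RNA added. Both came from female mice of the hybrid strain B6CASTF1/J, a cross of C57BL/6J with CAST/EiJ, aged 25 days and supplied by The Jackson Laboratory. The libraries form 1 group, so no treatment, age, sex or genotype was compared. The samples share a donor label and carry separate animal numbers and separate biological replicate numbers, and they are called animals here. Whole hearts were sampled as bulk tissue, in which fewer cells of a type and less RNA per cell cannot be told apart.

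Atrial natriuretic peptide, encoded by Nppa, and brain natriuretic peptide, encoded by Nppb, are hormones that heart muscle releases when its wall is stretched. Both are made as precursors that proteases cut to free a peptide with a disulfide-closed ring. They bind Npr1, a membrane guanylyl cyclase that makes cyclic GMP and thereby relaxes vessels and promotes salt excretion. C-type natriuretic peptide, encoded by Nppc, acts mainly on the sister cyclase Npr2, and Npr3 takes up and clears all of these peptides.

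The ring is the part of the peptides that the receptors recognise, and its coding sequence is shown for Nppb and Nppc because it is what these peptide genes share. Each ring was found in the reference translation as a cysteine, 15 residues and a cysteine, and each lay wholly in exon 2 of the gene's single annotated transcript. The sequences are those of the mm10 reference, 5′ to 3′ on the coding strand, and capitals mark the codons of the 2 cysteines that close the ring. They stand at chr4:147986464-147986514 (plus strand) for Nppb and chr1:86669667-86669717 (minus strand) for Nppc.
Nppb ring: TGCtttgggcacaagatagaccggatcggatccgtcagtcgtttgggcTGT
Nppc ring: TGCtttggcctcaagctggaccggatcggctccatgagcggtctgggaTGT

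Nppb and Nppc shared 13 of the 17 ring residues, and 40 of the 51 coding bases. The ring stood near the end of each precursor, at residues 99 to 115 of 121 in Nppb and 110 to 126 of 126 in Nppc. Nppc thus had no residue after the ring, against 6 in Nppb. Upstream of the ring each precursor held an arginine, 2 residues and an arginine, the minimal form of a site that furin-type proteases cut. Nppb held 1 such match before the ring and Nppc held 2. The last match ended 22 residues before the ring in Nppb and 33 before it in Nppc, and which match of Nppc is cut was not examined. These matches are descriptions of the letters, and no cleavage was measured.

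Levels are given as deposited TPM, a read count divided by transcript length and scaled to a fixed total over all entries, so that genes can be compared with each other. The main values come from tables made from alignments. A second set of tables, made directly from 1 file of reads per library, is called read-based. A gene was called detected at 1 TPM or more in both animals, and 7 of the 8 genes were, while 11947 of all 55536 genes were. In order of mean level they were Nppa, Nppb, Corin, Furin, Npr2, Npr3, Npr1 and, below the threshold, Nppc. All 3 receptors were detected, and each lay below both proteases and below Nppa and Nppb in both animals.

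**Figure D1:**
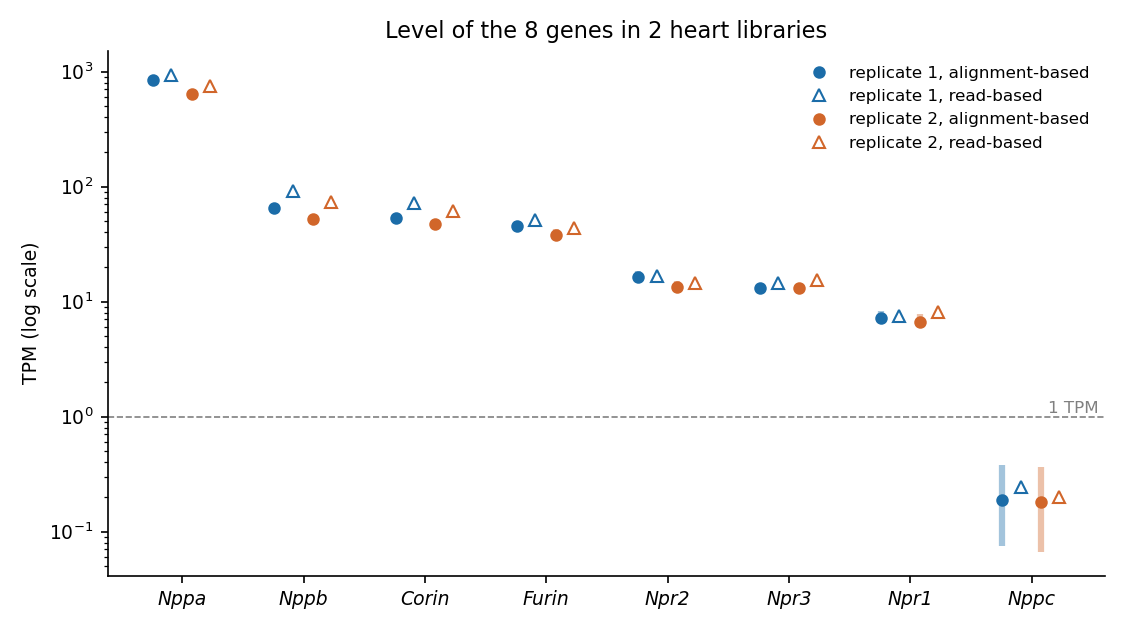
TPM (log axis) of the 8 genes in both libraries, with filled circles for the alignment-based and open triangles for the read-based value, and bars for the deposited credibility interval of the former. By the alignment-based values Nppa stands alone at the top at 639 and 840 TPM, 6 genes lie between 6.63 and 65.2 TPM, and Nppc is below the dashed line at 1 TPM.

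Nppa (ENSMUSG00000041616.9, chromosome 4, 148000722 to 148002079, plus strand) measured 840 TPM in replicate 1 against 639 in replicate 2, a mean of 739 ± 142 TPM (SD, n = 2). Behind these values were 21741 and 17084 expected counts, that is, reads assigned to the gene by an estimation that splits shared reads. Replicate 1 was the higher animal. Among the 10972 protein-coding nuclear genes that were detected, Nppa ranked 58, within the top 0.529%. The deposited TPM lay just above its own deposited credibility interval in both libraries, which ran from 813 to 835 in replicate 1 and from 617 to 636 in replicate 2, and the deposited posterior means were 824 and 627 TPM. The read-based level was 943 and 747 TPM, with the same animal higher.

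Nppb (ENSMUSG00000029019.8, chromosome 4, 147985788 to 147987205, plus strand) measured 65.2 TPM in replicate 1 against 52.1 in replicate 2, a mean of 58.6 ± 9.26 TPM (SD, n = 2) from 1502 and 1240 counts. It was again higher in replicate 1, and it ranked 915 among the detected protein-coding genes. Nppa exceeded Nppb 12.9-fold in replicate 1 and 12.3-fold in replicate 2, so the proportion between both cardiac hormones differed little between the animals while each level differed more. The read-based tables gave a smaller excess, 10.3-fold and 10.2-fold, with Nppb at 91.8 and 73.1 TPM. Both genes are short, at 865 and 781 transcript bases, and the deposited effective length that divides the counts differed between the quantifications. For Nppa it was 766 bases by alignment and 532 and 540 in the read-based tables of replicates 1 and 2, and for Nppb it was 682 against 448 and 456. The counts differed as well. Nppa had 21741 and 17084 counts by alignment and 17263 and 14020 read-based. Nppb had 1502 and 1240 by alignment and 1416 and 1159 read-based. The parts of counts and of length in the smaller excess were not tested.

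Nppc (ENSMUSG00000026241.5, chromosome 1, 86666291 to 86670571, minus strand) was near the limit of detection. It measured 0.19 TPM in replicate 1 against 0.18 in replicate 2, with 6 counts in each library. The exact 95% Poisson interval of 6 counts runs from 2.20 to 13.1 and covers counting error only. The ratio of replicate 1 to replicate 2 had an interval of 0.260 to 3.64, so a difference within that range was not detectable at this depth. Npr2, the cyclase that its peptide activates, was present at far higher RNA levels in the same libraries, as given further on.

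Nppb and Nppa lie on the same strand, with 13516 bases between the end of Nppb and the start of Nppa. Within 50 kb of either gene, 5 other annotated genes were examined, and none came near Nppa in level. Plod1, a collagen-modifying enzyme, had 37.5 and 29.1 TPM in replicates 1 and 2, and 2510039O18Rik had 14.0 and 15.4 TPM. Clcn6, a chloride transporter gene that ends 2179 bases past Nppa, had 3.32 and 2.81 TPM. The pseudogene Gm13207 was listed at 0 and 0.04 TPM. The antisense gene Gm13054 overlaps the exons of Nppa by 532 bases and was given 7 and 4 counts, or 0.29 and 0.16 TPM. Whether the counting used the strand of the reads is not given in the sources used here, so reads of Gm13054 and Nppa cannot be told apart with certainty.

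**Figure D2:**
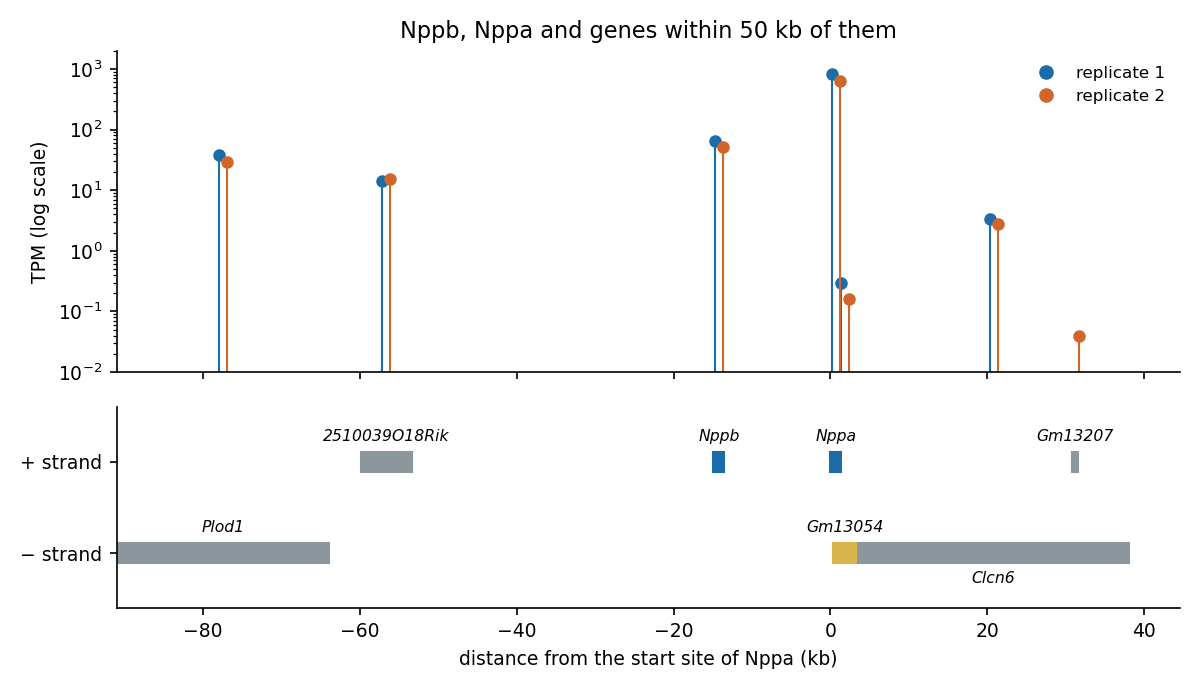
Upper panel, TPM (log axis) of Nppa, Nppb and the 5 genes examined within 50 kb of them in both libraries; lower panel, their positions by strand as distance in kb from the start of Nppa, with both peptide genes in blue and the antisense gene Gm13054 in yellow, its end close to Clcn6. Nppa and Nppb are the highest of the 7 genes drawn in both animals.

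The promoters of both cardiac peptide genes are shown because their letters can be read beside the levels of the factors known to bind such motifs. They come from RefSeq (GRCm38.p6) and cover 250 bases before to 50 bases after the annotated RefSeq start, at chr4:148000472-148000771 for Nppa and chr4:147985650-147985949 for Nppb, both on the plus strand. Capitals mark matches, on either strand, to the letters TATAAA for the box of that name (called TATA box here), the letters AGATAA for factors of the GATA family, the letters AAGTG for NKX2-5, the letters GGTGTG for T-box factors and the letters CATTCC for TEAD factors. No motif letters overlapped each other in these promoters. Matching by symbol found all 8 genes in the table, with 9 entries, since Furin has 2 starts.
Nppa promoter: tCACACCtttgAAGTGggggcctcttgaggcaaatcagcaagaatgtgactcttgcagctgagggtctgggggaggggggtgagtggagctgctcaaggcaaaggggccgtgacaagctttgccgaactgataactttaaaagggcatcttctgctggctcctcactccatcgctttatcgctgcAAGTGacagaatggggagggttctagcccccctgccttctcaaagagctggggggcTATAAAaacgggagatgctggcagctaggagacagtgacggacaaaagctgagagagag
Nppb promoter: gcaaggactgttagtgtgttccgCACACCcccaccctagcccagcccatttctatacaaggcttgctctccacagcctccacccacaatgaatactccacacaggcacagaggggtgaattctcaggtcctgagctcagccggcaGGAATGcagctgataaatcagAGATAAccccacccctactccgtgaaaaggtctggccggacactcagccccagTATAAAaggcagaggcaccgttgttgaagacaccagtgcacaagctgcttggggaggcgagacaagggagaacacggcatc

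The Nppa promoter held 1 TATA box, 2 NKX2-5 motifs and 1 T-box motif, and the Nppb promoter held 1 each of the TATA box and the GATA, T-box and TEAD motifs. Each motif was searched in 1 spelling only. The letters TGATAA, which also contain GATA, stand in both promoters and were neither marked nor counted. The counts of GATA motifs therefore hold for the letters AGATAA alone. Among all 32851 promoters of the table, 13.6% held the TATA box, 11.2% the GATA, 46.4% the NKX2-5, 19.0% the T-box and 14.7% the TEAD motif. Of the other members, Nppc held a TATA box, Corin held a T-box motif, and none of the 5 motifs was found in the windows of Npr1, Npr2 and Npr3. The RefSeq start of Nppb is not the same as the start in the annotation used for counting, so positions relative to the start depend on the annotation. In that annotation the Npr3 window (chr15:11907322-11907621) lies upstream of the starts of both main transcripts, at 11905674 and 11905639. The Corin window (chr5:72504491-72504790) likewise lies upstream of the start of its leading transcript, at 72504208. Both genes are on the minus strand, and the bases around those starts were not searched. A match is a run of letters and no evidence that a factor binds there.

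Transcription factor genes of the peptide genes, among them the known activators of Nppa and Nppb, were read through 15 genes. Of these, 15 were detected, at a median of 32.3 TPM. Tead1, a partner of the Hippo pathway, led with 69.7 and 63.8 TPM, followed by the muscle factors Mef2a with 56.6 and 54.8 TPM and Mef2d with 46.9 and 48.9 TPM. Gata4, a heart GATA factor, had 39.4 and 43.0 TPM. In the comparison of the libraries described further on, 6 of the 15 had an adjusted p under 0.05 towards replicate 2 and 1 towards replicate 1. Over all genes tested, 9.29% passed towards replicate 2 and 10.6% towards replicate 1. Smaller differences pass that test at higher counts, and the share among genes of like counts was not computed. The median log2 ratio of the 15 genes was 0.13.

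Corin (ENSMUSG00000005220.10, chromosome 5, 72300025 to 72504473, minus strand) encodes the membrane protease of heart muscle that cuts the Nppa precursor. It measured 53.5 TPM in replicate 1 against 47.4 in replicate 2, a mean of 50.5 ± 4.33 TPM (SD, n = 2) from 8251 and 7672 counts. Its level overlapped that of Nppb between the animals, since Corin in replicate 1 was above Nppb in replicate 2. Within each animal Nppb was the higher, 1.22-fold and 1.10-fold, but in replicate 2 the deposited intervals of both genes overlapped. The read-based level of Corin was 72.2 and 61.2 TPM.

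Furin (ENSMUSG00000030530.15, chromosome 7, 80388585 to 80405436, minus strand) encodes a protease of the secretory pathway that cuts many precursors, that of C-type natriuretic peptide among them. It measured 45.2 TPM in replicate 1 against 38.3 in replicate 2, a mean of 41.7 ± 4.94 TPM (SD, n = 2) from 6394 and 5487 counts. Replicate 1 was again higher. Corin exceeded Furin 1.18-fold and 1.24-fold, with the ranges of the animals separate, and 1.42-fold and 1.40-fold in the read-based tables.

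Npr2 (ENSMUSG00000028469.15, chromosome 4, 43631935 to 43651244, plus strand), the cyclase of C-type natriuretic peptide, was the highest receptor RNA on average. It measured 16.3 TPM in replicate 1 against 13.4 in replicate 2, a mean of 14.9 ± 2.02 TPM (SD, n = 2). Npr3 (ENSMUSG00000022206.7, chromosome 15, 11839896 to 11907287, minus strand), the clearance receptor, stood at 13.1 and 13.3 TPM, a mean of 13.2 ± 0.134 TPM (SD, n = 2). It was the member that differed least between the animals in TPM among those detected. Npr2 and Npr3 were not separated in order: Npr2 was 1.25-fold above Npr3 in replicate 1 and 1.01-fold in replicate 2, where their deposited intervals overlapped. In the read-based tables Npr2 was 1.13-fold above Npr3 in replicate 1 but at 0.941 of it in replicate 2.

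Npr1 (ENSMUSG00000027931.12, chromosome 3, 90450591 to 90465866, minus strand), the cyclase of the atrial and brain peptides, was the lowest of the 3 receptors in both animals. It measured 7.25 TPM in replicate 1 against 6.63 in replicate 2, a mean of 6.94 ± 0.438 TPM (SD, n = 2), and ranked 6378 among the detected protein-coding genes. The read-based level was 7.45 TPM in replicate 1 and 8.18 TPM in replicate 2, so which animal was higher in TPM depended on the quantification. Npr2 exceeded Npr1 2.25-fold and 2.03-fold, and Npr3 exceeded it 1.80-fold and 2.00-fold. The summed level of both cyclases was 1.80-fold that of the clearance receptor in replicate 1 and 1.51-fold in replicate 2. These proportions carry no test, since with 2 animals an exact sign-flip p is 0.5 at the least. The proteins translated from the leading reference transcripts were the same at 63.2% of aligned positions for Npr1 and Npr2, which both carry a cyclase part, over 1027 positions. Npr3 is shorter, at 536 residues against 1057 and 1047, and matched Npr1 at 34.1% and Npr2 at 31.5% of aligned positions.

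The 3 peptide genes have 1 annotated transcript each, and the other 5 members have 5 to 10. In each of the 5 the transcript with the highest share was the same by both quantifications and in both animals, but the size of its share was not. The transcript ENSMUST00000029540.12 of Npr1, which encodes the full cyclase of 1057 residues, took 87.1% of the gene in replicate 1 and 88.7% in replicate 2, and 94.7% and 79.6% in the read-based tables. ENSMUST00000030191.14 of Npr2, the full form of 1047 residues, took 67.3% and 79.2%, and 78.6% and 86.5% read-based. The shorter coding transcript of Npr2, ENSMUST00000128549.2, was given 16.3% and 12.1% by alignment and 1.45% and 0% read-based, so its presence depended on the quantification.

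**Figure D3:**
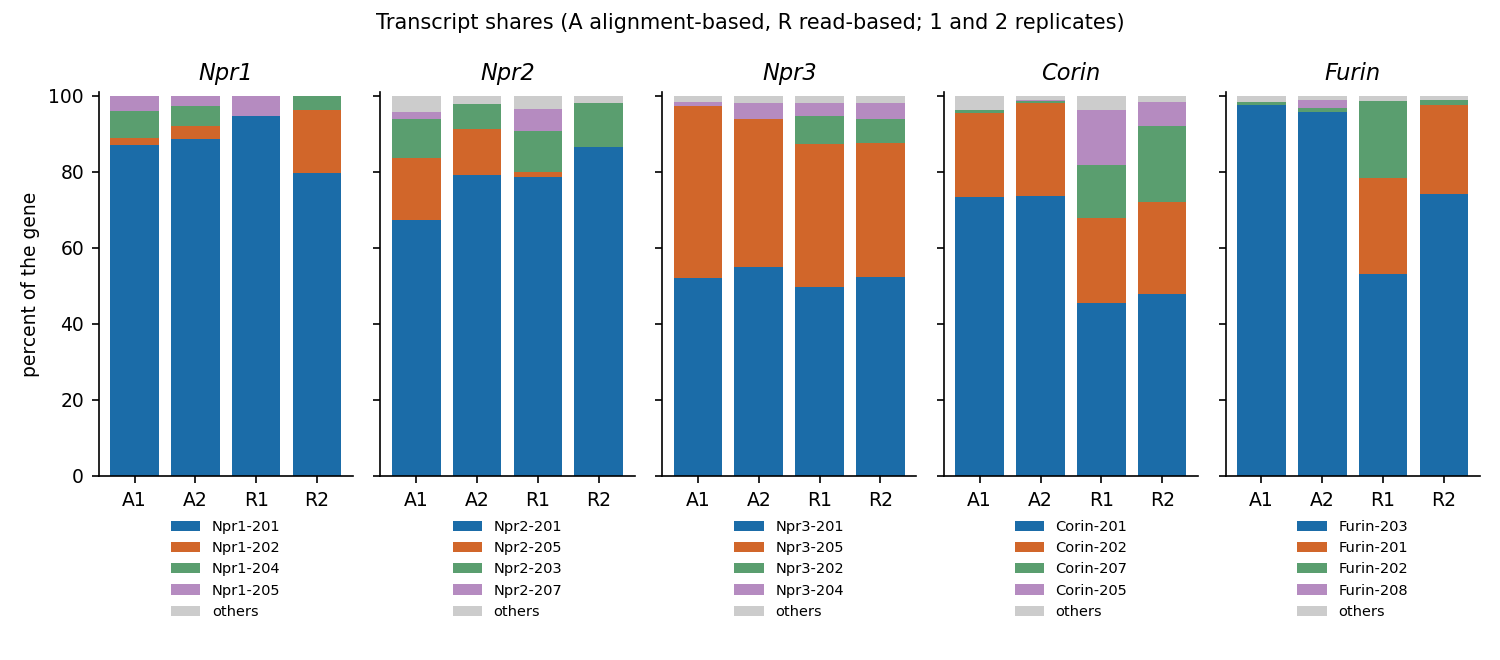
Share of each gene's TPM by transcript, in percent, for the 5 members with several transcripts; A1 and A2 are the alignment-based and R1 and R2 the read-based values of replicates 1 and 2. The leading transcript, in dark blue, is the same in all 4 bars of each gene, and for Furin it ranges from 53.0% to 97.6%.

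Npr3 had 2 main transcripts by both quantifications. The long transcript, ENSMUST00000066529.4, took 52.1% of the gene in replicate 1 and 54.9% in replicate 2, and the short one, ENSMUST00000228603.1, took 45.2% and 38.9%. The read-based shares were close to these, at 49.8% and 52.4% for the long and 37.4% and 35.2% for the short transcript. Both transcripts have 8 exons, and they differ in the last exon, of 5393 bases in the long and 906 in the short one, and by 3 coding bases at the 5′ end of exon 7 (chr15:11846383-11846385, minus strand). The proteins are accordingly 536 and 535 residues long. The stretch of joined exons 6 and 7 is shown for both, because it is the coding difference between the 2 main forms of the clearance receptor, and capitals mark the bases that the short one lacks.
Npr3 long transcript, exons 6 and 7: ctccttgcaaatcatCAGgtggcctagaag
Npr3 short transcript, exons 6 and 7: ctccttgcaaatcatgtggcctagaag

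Corin had 2 main forms with alternative coding first exons. Corin-201, of 1113 residues, took 73.3% of the gene in replicate 1 and 73.8% in replicate 2, and Corin-202, of 1047 residues, took 22.1% and 24.2%. The read-based tables gave Corin-201 45.5% and 47.8% and Corin-202 22.4% and 24.3%. There Corin-207, which begins near the start of Corin-202, took 13.8% and 19.9%, against 1.00% and 0.59% by alignment, and the noncoding Corin-205 took 14.7% and 6.38%, against 0% and 0.39%. The read-based share of Corin-205 rested on only 53.6 and 20.7 counts, over effective lengths of 147 and 152 bases. The first exons are shown because they set the start of the protein inside the cell: 267 coding bases in Corin-201 (chr5:72503882-72504148) and 69 in Corin-202 (chr5:72504371-72504439), both on the minus strand. Capitals mark the start codon.
Corin-201 first exon: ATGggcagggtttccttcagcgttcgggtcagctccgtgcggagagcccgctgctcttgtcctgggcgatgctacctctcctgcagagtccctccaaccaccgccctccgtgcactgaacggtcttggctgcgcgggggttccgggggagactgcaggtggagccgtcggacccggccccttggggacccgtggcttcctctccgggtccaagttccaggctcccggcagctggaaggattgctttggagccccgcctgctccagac
Corin-202 first exon: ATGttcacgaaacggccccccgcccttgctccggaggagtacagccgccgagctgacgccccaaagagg

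The Furin transcripts Furin-201, Furin-202 and Furin-203 differed in start site and not in protein. All of these encode the same 793 residues, and each has its own noncoding first exon. The other annotated transcripts of the gene have a shorter coding sequence or none. Furin-203 took 97.6% of the gene in replicate 1 and 95.7% in replicate 2. In the read-based tables it took 53.0% and 74.3%. Furin-201, which starts 2669 bases upstream, was given 0% in both animals by alignment but 25.4% and 23.4% read-based, and Furin-202 was given 0.84% and 1.00% by alignment but 20.1% and 1.18% read-based. The share of the minor starts of Furin was thus not settled by these tables. RefSeq holds promoters for both starts, and they are shown because they differ in composition: chr7:80402763-80403062, next to the first exon of Furin-203, and chr7:80405387-80405686, at the start of Furin-201, both on the minus strand. Capitals mark the motifs searched above.
Furin promoter at Furin-203: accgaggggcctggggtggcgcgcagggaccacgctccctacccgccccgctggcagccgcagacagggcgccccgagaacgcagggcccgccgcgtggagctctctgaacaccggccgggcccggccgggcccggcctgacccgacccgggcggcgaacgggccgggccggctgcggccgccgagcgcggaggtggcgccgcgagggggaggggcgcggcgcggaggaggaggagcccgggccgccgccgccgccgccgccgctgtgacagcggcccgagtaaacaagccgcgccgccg
Furin promoter at Furin-201: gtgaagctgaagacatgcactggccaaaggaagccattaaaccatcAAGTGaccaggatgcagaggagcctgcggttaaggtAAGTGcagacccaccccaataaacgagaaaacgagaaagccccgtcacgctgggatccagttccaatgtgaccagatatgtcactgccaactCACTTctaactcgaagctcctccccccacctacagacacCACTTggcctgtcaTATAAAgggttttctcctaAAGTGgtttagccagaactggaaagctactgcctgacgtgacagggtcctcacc

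The promoter at Furin-203 was 82.3% G or C and held none of the 5 motifs, while the promoter at Furin-201 was 51.3% G or C and held 1 TATA box and 5 NKX2-5 motifs. The median over all promoters of the table was 52.7% G or C.

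Both libraries were of like depth, with 42966739 and 42720824 expected counts on genes, and ERCC spike-ins took 0.518% and 0.544% of all counts. TPM of protein-coding nuclear genes summed to 39.6% and 38.4% of the total, and the median gene had a log2 TPM ratio of -0.09 between replicate 2 and replicate 1. Differences between the animals were taken from counts scaled by TMM, a method that centres the ratios of most genes, and had a median log2 ratio of 0.00 over the 15839 genes tested, those averaging 10 counts or more. The split of rounded counts between the libraries was tested per gene with an exact binomial test (two-sided), adjusted by Benjamini-Hochberg over all genes tested. With 1 library a side the p-values compare these libraries and no conditions, take every read for an independent molecule, and hold no spread between animals.

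None of the 7 tested members differed 2-fold between the animals. By the stricter rule (adjusted p under 0.05, ratio of at least 2, separate deposited intervals) 0 of 7 tested members were called, against 0.777% of all genes tested. At any ratio, 5 of the 7 had an adjusted p under 0.05, against 19.9% of all genes. Of these, 4 were higher in replicate 1, as were 10.6% of all genes, and 1 was higher in replicate 2, as were 9.29% of all genes. All 7 tested members averaged over 500 counts, as did 6905 of the 15839 genes tested. Smaller differences pass this test at higher counts, and the share of those 6905 genes that passed was not computed. The 5 of 7 and the 19.9% are therefore not directly comparable.

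Nppa was 1.24-fold higher in replicate 1, a log2 ratio of replicate 2 over replicate 1 of -0.31 (95% interval -0.34 to -0.28, adjusted p = 1.23e-95, exact binomial test). Nppb was 1.18-fold higher in replicate 1 (log2 -0.24, interval -0.35 to -0.13, adjusted p = 0.000213, exact binomial test). Of 6905 genes averaging 500 counts or more, 6.37% differed at least as much as Nppa and 11.5% at least as much as Nppb, and the median size of the log2 ratio was 0.09. Among the 7 tested members Nppa and Nppb had the largest log2 ratios in size, and both were higher in the same animal. The interval of Nppb overlapped that of Furin, which ran from -0.23 to -0.13.

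Furin was 1.13-fold higher in replicate 1 (log2 -0.18, adjusted p = 2.05e-10, exact binomial test) and Corin 1.05-fold (log2 -0.07, adjusted p = 0.0228, exact binomial test). Npr3 was the only tested member higher in replicate 2, with a log2 ratio of 0.14 (interval 0.05 to 0.23, adjusted p = 0.0113, exact binomial test). Its call depended on the scaling, with an adjusted p of 0.064 on total counts and 0.593 on ERCC totals in the same exact test. Npr2, at -0.06 with an interval of -0.17 to 0.04, and Npr1, at -0.02 with an interval of -0.16 to 0.12, did not pass the test. The log2 TPM ratio of Npr2 was -0.28, larger in size than its count ratio, and its deposited effective length was 2865 bases in replicate 1 and 3131 in replicate 2, while its full-length transcript took 67.3% and 79.2%. On ERCC totals Npr2 passed the exact test, with a log2 ratio of -0.16 and an adjusted p of 0.00939.

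**Figure D4:**
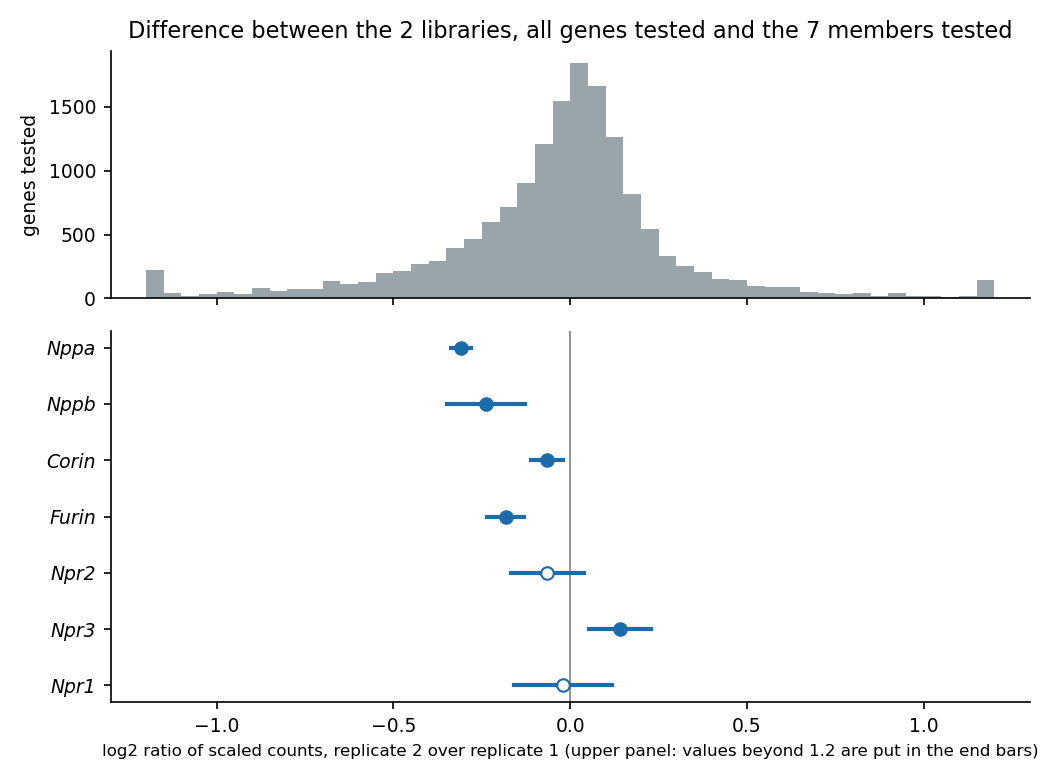
Log2 ratio of scaled counts, replicate 2 over replicate 1: upper panel, number of genes per bin for the 15839 genes tested; lower panel, 7 members with 95% intervals for counting error, filled where the adjusted p was under 0.05. Nppa and Nppb lie farthest to the left at -0.31 and -0.24, and Npr3 is the only one to the right of 0.

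Most, but not all, genes listed for atrial muscle, where Nppa is made most, were higher in replicate 1. Of the 8 listed atrial genes, all were detected, 7 were higher in replicate 1, and 5 of these and 1 in the other direction had an adjusted p under 0.05. Their summed level was 724 TPM in replicate 1 and 590 TPM in replicate 2, and their median log2 ratio was -0.20, against 0.00 over all genes tested. Among all genes tested, 10.6% had an adjusted p under 0.05 towards replicate 1 and 9.29% towards replicate 2. Myl4, an atrial myosin light chain, led the list with 320 and 263 TPM. Bmp10, a growth factor of atrial muscle named here after its values were seen, had 22.6 and 13.1 TPM. Kcnj5, an atrial potassium channel gene also named after its values were seen, went the other way with 21.6 and 25.0 TPM and a log2 ratio of 0.28, and Sln and Kcnj3 did not pass the test. Nppa was 2.62-fold the level of Myl4 in replicate 1 and 2.43-fold in replicate 2, and 2.94-fold and 2.83-fold that of the other atrial light chain Myl7, ratios also chosen after the values were seen. Several other cell type lists shifted the same way. The median log2 ratio was -0.31 for smooth muscle and pericyte, -0.29 for macrophage and -0.23 for fibroblast genes. It was -0.07 for endothelial and for endocardial genes, and lay towards replicate 2 for heart muscle, ventricular, fat cell and liver genes. The part of atrial tissue in the difference of Nppa was not tested.

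The 6 genes listed for heart muscle in general lay towards replicate 2. All 6 were detected and had an adjusted p under 0.05 in that direction, as did 9.29% of all genes tested. Their median log2 ratio was 0.12, and their summed levels were 20247 and 21212 TPM. All 6 averaged over 500 counts, and small differences pass this test at high counts. Over the genes averaging 500 counts or more, the median size of the log2 ratio was 0.09. Myh6, the main myosin heavy chain of the adult mouse heart, led with 9386 and 9899 TPM. Of 5 ventricular genes, 4 had an adjusted p under 0.05 towards replicate 2, with summed levels of 12348 and 12943 TPM, led by the light chain Myl2. These lists also serve as a check of the label: the defining genes of heart muscle and of both chamber types were all detected.

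RNA of other cell types of the heart was present as well. Endothelial genes, 7 of 7 detected, summed to 254 and 222 TPM and were led by Cdh5, with 4 of 7 higher in replicate 1 and 1 in replicate 2 at an adjusted p under 0.05. Endocardial genes, 4 of 5 detected, summed to 35.4 and 33.7 TPM and were led by Cgnl1. Fibroblast genes, 7 of 7 detected and led by Dcn, summed to 543 and 436 TPM, with 4 of 7 higher in replicate 1 at that threshold. Smooth muscle and pericyte genes, 7 of 7 detected and led by Acta2, summed to 342 and 262 TPM, again with 4 of 7. Macrophage genes, 5 of 5 detected and led by C1qa, summed to 46.4 and 37.1 TPM, and of 4 fat cell genes 3 were detected, led by Ucp1 at 3.14 and 5.83 TPM. Their part in the receptor values was not tested. The liver genes, led by Alb at 0.03 and 13.4 TPM, summed to 0.17 TPM in replicate 1 and 20.6 TPM in replicate 2, and all 6 were called higher in replicate 2. Serpina1a and Fgb had 0 counts in replicate 1, and the part of liver RNA in the values of the 8 members was not tested.

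The wider pathway was read through 59 further genes in 6 lists, of which 45 were detected and 51 tested. In these lists 11 genes had an adjusted p under 0.05 towards each animal, and none was called at a 2-fold difference. The shares over all genes tested were 10.6% towards replicate 1, 9.29% towards replicate 2 and 0.777% called. Of 12 genes for peptide breakdown and processing, 6 were detected. Ide, the insulin-degrading enzyme, which also cuts atrial natriuretic peptide, led with 26.8 TPM in replicate 1 and 42.2 TPM in replicate 2. Its log2 ratio of 0.74 (adjusted p = 1.55e-127, exact binomial test) was larger than that of any of the 8 members and opposite to that of Nppa. Pcsk6, the convertase that activates corin, had 21.6 and 15.1 TPM, a log2 ratio of -0.36 (adjusted p = 1.98e-16, exact binomial test). It was higher in replicate 1. Mbtps1 and Pcsk7, further convertases, had means of 15.2 and 6.30 TPM. Neprilysin, encoded by Mme and known as a main enzyme of peptide breakdown, had 4.65 and 5.06 TPM. Mep1a, Mep1b, Pcsk2 and Ostn, whose product competes for Npr3, were listed at 0 in both libraries.

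**Figure D5:**
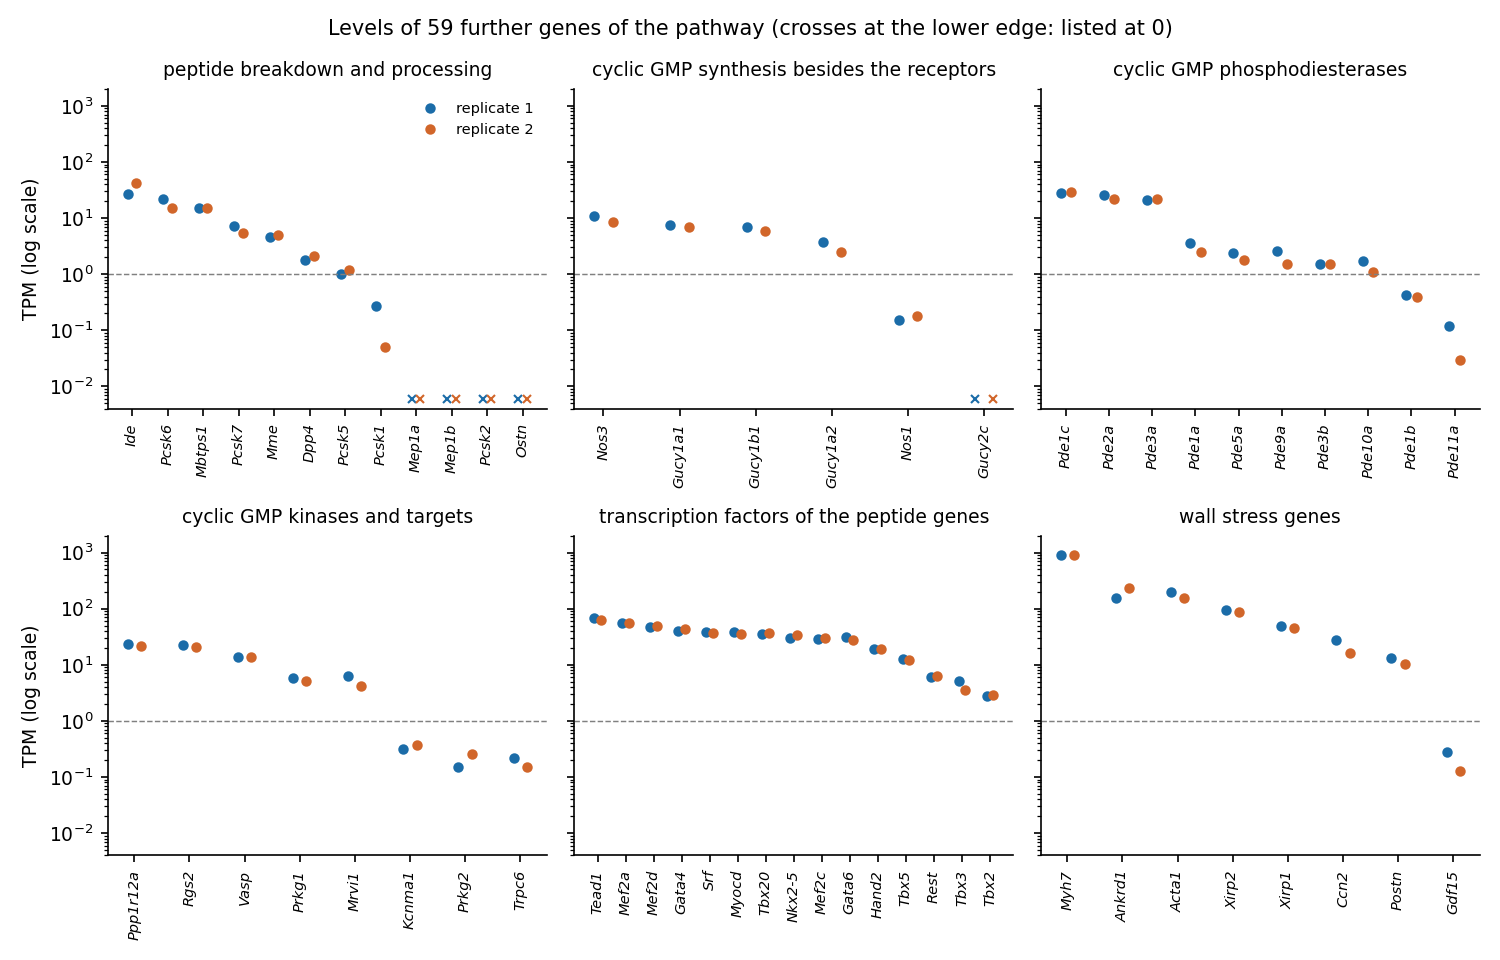
TPM (log axis) of the 59 further genes by list, with 1 point per library and a dashed line at 1 TPM; genes listed at 0 are drawn as crosses at the lower edge. In the list for peptide breakdown Ide is the highest gene and the higher animal is replicate 2, and all 15 transcription factor genes drawn lie above the line.

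Besides Npr1 and Npr2, cyclic GMP is made by soluble guanylyl cyclase, which nitric oxide activates. Of 6 listed genes of cyclic GMP synthesis, which include the membrane cyclase Gucy2c, listed at 0, 4 were detected: Nos3, the endothelial nitric oxide synthase, at 10.8 and 8.52 TPM, and the cyclase subunits Gucy1a1 at 7.41 and 6.81, Gucy1b1 at 6.85 and 5.87 and Gucy1a2 at 3.74 and 2.49 TPM. The subunits Gucy1a1 and Gucy1b1 were thus in the range of Npr1. Of 10 phosphodiesterase genes that break cyclic GMP down, 8 were detected, led by Pde1c at 27.8 and 29.0 TPM, Pde2a at 25.4 and 22.2 TPM, Pde3a at 20.9 and 21.9 TPM and Pde1a at 3.53 and 2.49 TPM. Of the 10, 2 had an adjusted p under 0.05 towards replicate 1 and 2 towards replicate 2. The first 3 exceeded each of the 3 receptors in both animals.

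Of 8 kinases and targets of cyclic GMP, 5 were detected, led by Ppp1r12a, a myosin phosphatase subunit, at 23.7 and 21.8 TPM. Rgs2, a regulator of G protein signalling, followed at 22.2 and 20.9 TPM and Vasp, a cytoskeletal kinase substrate, at 13.7 and 13.6 TPM. Prkg1, the main cyclic GMP kinase of muscle, had 5.70 and 5.04 TPM, and in this list 1 gene had an adjusted p under 0.05, towards replicate 1. Of 8 wall stress genes, 7 were detected, led by Myh7 at 909 and 889 TPM, Ankrd1 at 158 and 236, Acta1 at 198 and 158 and Xirp2 at 94.6 and 86.0 TPM. Acta1 was higher in replicate 1 (log2 -0.24), while Ankrd1, a stretch-responsive gene of heart muscle, was higher in replicate 2 (log2 0.67). Myh7 had a log2 count ratio of 0.14, towards replicate 2, although its TPM was lower in that animal. The read-based level of Myh7 was 1986 TPM in replicate 1 and 1895 TPM in replicate 2. In all, 4 wall stress genes had an adjusted p under 0.05 towards replicate 1 and 2 towards replicate 2, with a median log2 ratio of -0.05.

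Apart from Gm13054, antisense or divergent genes overlap exons of Npr1, Npr2, Npr3, Corin and Furin, and each was at 0.08 TPM or lower in both libraries. No likeness of pattern between genes was computed, since 2 libraries of 1 group hold no profile.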

How the data were processed

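Heart RNA of 2 libraries was analysed from the tables deposited for each: a gene and a transcript table made from transcriptome alignments and a transcript table made from 1 FASTQ file, all against mm10 with GENCODE M21, per the deposited listings. Which tools and versions were run is not given in the sources used here, although the columns carry the names used by RSEM and kallisto. Expected counts and estimated counts were deposited by the authors as reads assigned to each feature, not normalized. TPM and FPKM were computed by the authors per length and scaled to the library total, per the file headers. The share of each transcript in its gene was deposited in percent. The bounds of the credibility interval on TPM, taken as a score, were deposited with no level stated, per the file headers.

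Read-based TPM and estimated counts were summed to genes by the identifiers in the target names. Entries for 96 ERCC RNAs and 26248 tRNA entries were kept out of gene totals, and 0 columns of other samples were present. A comparison of 1 library with another leaves no residual degrees of freedom for edgeR's quasi-likelihood test, so expected counts were rounded and compared by an exact binomial test (two-sided) at library sizes scaled by TMM (edgeR 4.0.16), for genes averaging 10 counts or more, with Benjamini-Hochberg adjustment. DESeq2 1.42.0 gave alternative size factors. Proportions between members used a pseudocount of 0.1 TPM where given as log2. The test was tried on simulated counts with known changes. Depth was 42966739 and 42720824 counts on genes. Coding sequences were read from mm10 with GENCODE M21, promoters from a RefSeq table, with Biopython 1.88, Python 3.11.15 and R 4.3.3.

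All 8 members were named with both values, in each pathway list up to 4 detected genes in order of TPM, in each cell type list the leading gene, and the genes within 50 kb of Nppa and Nppb; Mme, Prkg1, Bmp10, Myl7, Kcnj5, Sln, Kcnj3, Serpina1a, Fgb and the genes listed at 0 were added after their values were seen. A sequence, a listed gene and a neighbouring gene are not reported here. The members and lists were chosen with earlier results of these data known. The alternatives were read-based tables, posterior means, TPM rescaled to protein-coding nuclear genes, other scalings, filters and pseudocounts, and single animals.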

Additional observations from a re-analysis of the deposited data

How the results depend on the processing

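The number of members detected was 7 at 0.5, 1 and 5 TPM, by read-based tables and with either animal alone. No member was called at a 2-fold difference under any scaling, without the count filter, without the interval criterion or on read-based counts. On total counts 4 members had an adjusted p under 0.05, and 5 under the other settings run. Over all genes, ERCC totals moved the median log2 ratio to -0.10, the calls at any ratio from 3152 to 4134 and the 2-fold calls from 123 to 162. Without the interval criterion the 2-fold calls over all genes were 274, and on read-based counts, also without it, 327; the cause of the last was not tested.

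In the read-based tables the log2 proportion of Nppa to Nppb was 3.35 in place of 3.65, and that of Corin to Furin 0.50 in place of 0.28, both in the same direction; the cause was not tested. With 1 animal left out, the log2 proportions ranged from 3.61 to 3.69 for Nppa to Nppb, 1.01 to 1.16 for Npr2 to Npr1, 0.84 to 0.99 for Npr3 to Npr1, 0.02 to 0.32 for Npr2 to Npr3 and 0.24 to 0.31 for Corin to Furin. The proportion of Npr2 to Npr3 thus rests on replicate 1. The signs of the log2 count ratios of the 7 tested members stayed the same in each scaling, filter and quantification run. Rescaling to protein-coding nuclear genes multiplied every TPM by 2.53 in replicate 1 and 2.60 in replicate 2. Mean TPM of all 8 members was therefore higher by construction, with Nppa at 1894 and Nppb at 150 TPM in place of 739 and 58.6. The share of Furin-203 fell from a mean of 96.7% to 63.7% in the read-based tables and that of Corin-201 from 73.5% to 46.6%. No paired analysis was possible because the libraries form 1 group. Reads of the CAST/EiJ alleles were quantified against a C57BL/6J reference, whose effect on the members was not tested.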
